A study of Mus musculus with 16 samples.

Results

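Brains of adolescent mice that drank ethanol alone were set directly against brains of mice that drank nicotine alone, without the water controls in between. The members were the 4 Water-Ethanol mice (13, 14, 15 and 16), which the labels mark by the initials of that name, and the 4 mice labelled NW for nicotine and water (7, 8, 10 and 11), 8 of the 16 mice of the series, and every gene that passed a filter on low counts was tested. All mice were female C57BL/6J, an inbred laboratory strain without transgenes, were housed singly on a reversed light cycle and were killed at postnatal day 45, when the whole brain with its cerebellum was taken for RNA-seq. For the NW mice every bottle held nicotine (200 µg/ml) during 22 h of each experimental day, and plain water was offered in the daily session of limited access. The Water-Ethanol mice had tap water for those hours and 20% v/v ethanol in the sessions of the last 4 days, which followed the drinking-in-the-dark design. Their final session lasted 4 h and ended at collection. The contrast therefore sets brains taken straight after ethanol drinking against brains taken after a session in which the nicotine bottles had been off the cage. The 4 WW mice (water in both periods) and the 4 NE mice (nicotine bottles and ethanol sessions) are given for some genes as levels beside this contrast. The figures use the initials as well.

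Nicotine opens nicotinic acetylcholine receptors, ion channels built from several subunits that normally answer acetylcholine and that sit on many neurons, among them the dopamine neurons of the midbrain. Ethanol has no single receptor: it dampens NMDA-type glutamate receptors, strengthens GABA-A receptors, and is oxidised to acetaldehyde by alcohol dehydrogenases, Cyp2e1 and catalase and then to acetate by aldehyde dehydrogenases such as Aldh2. Ethanol also alters water balance and glial cells, and neuronal activity is quickly mirrored by immediate early genes.

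Counted reads per mouse ran from 27574067 to 29562852 in Water-Ethanol and from 28186296 to 32876705 in NW. No libraries were identical, and Pearson's r of log2 counts across genes lay between 0.9915 and 0.9955 for pairs of mice from different groups and between 0.9924 and 0.9961 within groups. Mouse numbers run in 1 block per group, and the labels name no batch, so anything that follows the order of the mice cannot be told apart from the group. The NW library of mouse 10 stood apart: the ribosomal RNA gene Rn45s held 3.90% of its reads (0.41% to 1.37% in the other NW mice and 0.37% to 0.62% in Water-Ethanol), the summed level of 12 cerebellar markers was 18573 normalized reads (42047 to 45475 in the other NW mice and 38808 to 44179.9 in Water-Ethanol), and the pituitary hormone gene Prl had 241 normalized reads against 0 in the other 7 mice. In WW, whose levels are given for reference, mouse 21 stood apart in the same markers, with a cerebellar sum of 13308 against 40659 to 46809.9 in the other 3. Normalized reads are counts scaled by TMM factors to a common library size.

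Under edgeR's quasi-likelihood test with Benjamini-Hochberg adjustment, 0 of 15339 genes (0.0%) differed between Water-Ethanol and NW at an adjusted p under 0.05, and the smallest adjusted p was 0.0692. At an unadjusted p under 0.05 there were 1517 genes higher in Water-Ethanol (9.89% of those tested) and 1085 lower (7.07%). In 833 genes all 4 Water-Ethanol mice lay above all 4 NW mice (5.43%), and in 735 all lay below (4.79%). With upper-quartile scaling, which moved the median log2 fold change of all genes from 0.0020 to -0.020, the unadjusted counts turned to 1122 higher and 1702 lower, so small shifts of a whole list are given beside the median of all genes. The number of calls depended on the method: DESeq2 called 405 genes, 3.14% of the 12894 to which it gave an adjusted p, and limma-voom called 0. Without NW mouse 10 the edgeR test called 173 of 15445 genes (1.12%), 132 higher and 41 lower in Water-Ethanol, and without NW mouse 11 it called 102. Of the 173, 130 were also called by DESeq2 with all 8 mice, which is 75.1% of the first list and 32.1% of the second. No gene below is a DEG by the quasi-likelihood test on the 8 mice. Counts of list members higher or lower in Water-Ethanol are at an unadjusted p under 0.05, to be read against 9.89% and 7.07% of all genes, and separate or without overlap means that all 4 mice of a group lay beyond all 4 of the other. The adjusted p given with a fold change is that of the quasi-likelihood test over all 15339 genes. Fold changes are Water-Ethanol minus NW on the log2 scale, ± standard error, and the 4 values of a group are normalized reads in the order of mouse numbers.

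**Figure D1:**
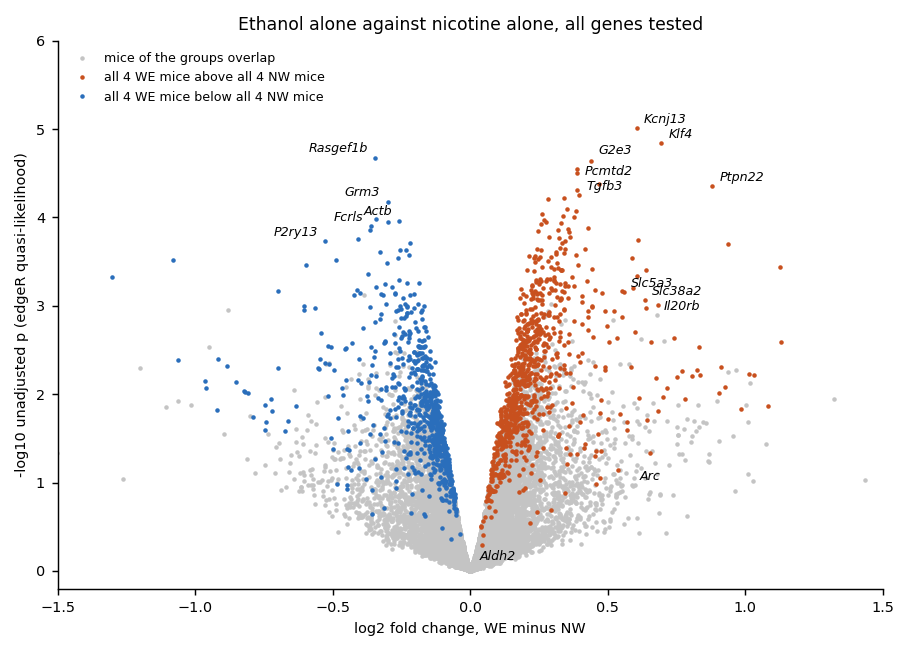
Each point is 1 of the 15339 genes tested, by its log2 fold change (ethanol alone minus nicotine alone, x axis) and the -log10 of its unadjusted quasi-likelihood p (y axis), and 7 genes beyond 1.5 log2 units are outside the plot. Genes whose 4 mice of each group do not overlap are coloured, and Kcnj13 and Klf4 have the smallest p.

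The gene with the smallest p was Kcnj13, an inwardly rectifying potassium channel of transporting epithelia such as the choroid plexus. It was counted from 3 exons at chr1:87386284-87394729 on the minus strand (mm10). Its normalized reads were 324, 305, 277 and 299.6 in the Water-Ethanol mice and 201, 209, 175 and 205 in the NW mice. The lowest Water-Ethanol mouse was thus well above the highest NW mouse (log2 fold change 0.60 ± 0.086, adjusted p = 0.0692). Second was Klf4 (chr4:55527137-55532475, minus strand, 5 exons), a zinc finger transcription factor that is quickly induced by stress and growth signals, with 343, 369, 399.6 and 330.4 in the Water-Ethanol mice and 199, 192, 247 and 253 in the NW mice (log2 fold change 0.69 ± 0.10, adjusted p = 0.0692). Both groups were tight and separate. For every gene whose groups do not overlap, the exact two-sided permutation p is 0.0286, the smallest that 4 against 4 mice allow.

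The bases before the start sites of Kcnj13 and Klf4 are shown because these genes led the comparison. They are the 250 bases upstream, 5′ to 3′ on the gene's strand, from RefSeq on GRCm38.p6. Capitals mark the 2 motifs searched. The TATA element is TATAA, which reads TTATA when it lies on the opposite strand. The core bound by NFAT proteins is GGAAA, and that motif was likewise sought on each strand.
Kcnj13 (chr1:87394730-87394979, minus strand): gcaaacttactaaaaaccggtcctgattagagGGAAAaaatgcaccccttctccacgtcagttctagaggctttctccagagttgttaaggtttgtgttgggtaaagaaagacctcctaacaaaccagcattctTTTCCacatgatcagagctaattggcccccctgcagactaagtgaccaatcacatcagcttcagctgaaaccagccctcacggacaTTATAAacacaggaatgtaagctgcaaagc
Klf4 (chr4:55532476-55532725, minus strand): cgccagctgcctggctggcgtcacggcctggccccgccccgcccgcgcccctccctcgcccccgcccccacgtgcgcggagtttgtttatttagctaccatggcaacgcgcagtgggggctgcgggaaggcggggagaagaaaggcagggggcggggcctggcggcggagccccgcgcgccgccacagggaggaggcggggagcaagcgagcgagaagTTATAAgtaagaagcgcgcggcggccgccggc
Both windows hold a TATA element, which starts 30 bases before the start site in Kcnj13 and 32 bases before it in Klf4. Of 32851 RefSeq windows of the same length, 22.8% hold 1 or more. Kcnj13 also holds 2 NFAT cores, a motif found in 55.6% of the windows. These are matches of letters and not measured binding sites.

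The other genes that were most clearly higher in Water-Ethanol had varied roles. Ptpn22 (chr3:103859795-103912252, plus strand), a tyrosine phosphatase that restrains immune cell signalling, had the largest fold change of the 12, with 313, 286, 411 and 312 in the Water-Ethanol mice and 223, 196, 149.6 and 147 in the NW mice (log2 fold change 0.88 ± 0.15, adjusted p = 0.0692). Tgfb3 (chr12:86056743-86079041, minus strand), a ligand of the TGF-β family, had 616, 589.8, 686 and 664 in the Water-Ethanol mice and 477, 488, 450.0 and 521 in the NW mice (log2 fold change 0.40 ± 0.067, adjusted p = 0.0692). Btg1 (chr10:96617001-96622811, plus strand), an anti-proliferative factor tied to messenger RNA turnover, had 2361, 2258, 2242 and 2176 in the Water-Ethanol mice and 1686, 1778, 1508 and 1920.5 in the NW mice (log2 fold change 0.39 ± 0.065, adjusted p = 0.0692). In all 3 the groups were separate, and the highest Ptpn22 value was that of Water-Ethanol mouse 15.

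G2e3 (chr12:51348230-51376986, plus strand), a ubiquitin ligase of the G2 and M phases, stood at 724, 724, 822 and 707 in the Water-Ethanol mice and 555, 497, 555 and 586 in the NW mice (log2 fold change 0.44 ± 0.068, adjusted p = 0.0692). Xpo1 (chr11:23256041-23297597, plus strand), the main exporter of proteins from the nucleus, stood at 4696, 4483, 4924 and 4868 in the Water-Ethanol mice and 3580.2, 4054, 3911 and 4029 in the NW mice (log2 fold change 0.28 ± 0.048, adjusted p = 0.0692). Nufip2 (chr11:77686139-77717966, plus strand), an RNA-binding partner of FMRP, stood at 4072, 3981, 4469 and 3908 in the Water-Ethanol mice and 2624, 2689, 3444 and 3104 in the NW mice (log2 fold change 0.47 ± 0.077, adjusted p = 0.0692). NW mice 7 and 8 were the lowest in Nufip2, and NW mouse 7 in Xpo1. Pcmtd2 (chr2:181837854-181857460, plus strand, log2 fold change 0.39 ± 0.061), Igip (chr18:36300101-36301478, plus strand, log2 fold change 0.39 ± 0.062), the zinc finger gene Zbtb44 (chr9:31030644-31075885, plus strand, log2 fold change 0.34 ± 0.058) and the chromatin factor Mier1 (chr4:103114390-103165754, plus strand, log2 fold change 0.35 ± 0.062) completed the 12 and were also without overlap.

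Of the 12 genes most clearly lower in Water-Ethanol, several belong to glia. P2ry13 (chr3:59207894-59210882, minus strand), an ADP receptor of microglia, had 205, 213, 161 and 190.2 in the Water-Ethanol mice and 307, 258, 277 and 267 in the NW mice (log2 fold change -0.53 ± 0.10, adjusted p = 0.0710). Fcrls (chr3:87250965-87263524, minus strand), a surface receptor that marks microglia, had 438, 508, 469 and 431 in the Water-Ethanol mice and 595, 589, 624 and 567 in the NW mice (log2 fold change -0.36 ± 0.067, adjusted p = 0.0692). Olig1 (chr16:91269769-91271939, plus strand), a transcription factor of the oligodendrocyte lineage, had 2993, 3131, 3259 and 3183 in the Water-Ethanol mice and 3664, 3781, 3563 and 3602 in the NW mice (log2 fold change -0.22 ± 0.042, adjusted p = 0.0710). Grm3 (chr5:9485236-9725352, minus strand), a group II metabotropic glutamate receptor of neurons and astrocytes, had 1779, 1672, 1673 and 1589 in the Water-Ethanol mice and 2062, 2217, 1964 and 2020.0 in the NW mice (log2 fold change -0.30 ± 0.052, adjusted p = 0.0692). In each the highest Water-Ethanol mouse lay below the lowest NW mouse.

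Rasgef1b (chr5:99217420-99252927, minus strand), an exchange factor for Rap GTPases, had the smallest p of the 12, with 1258, 1353, 1343 and 1406 in the Water-Ethanol mice and 1565, 1765, 1723 and 1752 in the NW mice (log2 fold change -0.35 ± 0.053, adjusted p = 0.0692). Actb (chr5:142903116-142906724, minus strand), the β-actin gene that is often used to normalize other assays, had 20716, 22317, 20674 and 21718 in the Water-Ethanol mice and 26564, 26176, 24058 and 25298 in the NW mice (log2 fold change -0.26 ± 0.047, adjusted p = 0.0692), and reads of actin genes and pseudogenes can be shared between near-identical copies. Slc7a5 (chr8:121881146-121907686, minus strand), the large neutral amino acid transporter of the blood-brain barrier, had 1768, 1933, 1740.0 and 1793 in the Water-Ethanol mice and 2383, 2228, 2105 and 2166 in the NW mice (log2 fold change -0.30 ± 0.054, adjusted p = 0.0692). All 3 were lower in every Water-Ethanol mouse than in any NW mouse. The inosine endonuclease Endov (chr11:119491347-119511465, plus strand, log2 fold change -0.34 ± 0.062), the tubulin cofactor Tbcc (chr17:46890621-46892463, plus strand, log2 fold change -0.37 ± 0.068), Zfp619 (chr7:39517766-39540415, plus strand, log2 fold change -0.41 ± 0.078), the membrane transporter Mfsd4 (chr1:132026621-132068062, minus strand, log2 fold change -0.23 ± 0.046) and Lrrc8b (chr5:105415775-105486189, plus strand, log2 fold change -0.26 ± 0.051), a subunit of volume-regulated anion channels, made up the rest. The 24 were taken for their small p in these mice, so calls by other fits on the same mice are no independent check.

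Levels of the 24 genes in the WW mice differed in which drinking group lay apart from them. Among the 12 higher genes, all 4 Water-Ethanol mice lay above the WW range while NW did not lie wholly below it in 5 (Kcnj13, Klf4, Ptpn22, Btg1 and Tgfb3). For Tgfb3 the WW mice ran from 447 to 495, around the NW values, and for Kcnj13 they ran from 172 to 224. In 3 others (Pcmtd2, Igip and Mier1) all 4 NW mice lay below the WW range and Water-Ethanol lay within it or partly above. For Igip, which encodes a small secreted protein that raises immunoglobulin A, the Water-Ethanol mice had 2333, 2449, 2517 and 2214, the NW mice 1634, 1749, 1908 and 1977 and the WW mice 2114 to 2602. In G2e3, Nufip2 and Xpo1 both groups lay outside the WW range, on opposite sides. Among the 12 lower genes, 10 had all 4 Water-Ethanol mice below the WW range, 1 (Zfp619) had both groups outside it, and in 0 was NW alone outside it. In the NE mice, which drank ethanol too, Kcnj13 ran from 273 to 307 and Grm3 from 1655 to 1982. NE values of Klf4 (255 to 366), Nufip2 (3342 to 4255), Fcrls (419 to 568) and Grm3 reached into or across the gap between Water-Ethanol and NW. Without WW mouse 21, an alternative chosen after seeing the data, Btg1 joined the genes with both groups outside the WW range, and Slc7a5 those with Water-Ethanol alone outside it. Both comparisons with WW use the same WW mice, so these levels are set side by side and not tested here. The 24 were chosen because Water-Ethanol and NW were separate, and these counts were not taken over all genes. They have no background share to be read against and describe the 24 alone.

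**Figure D2:**
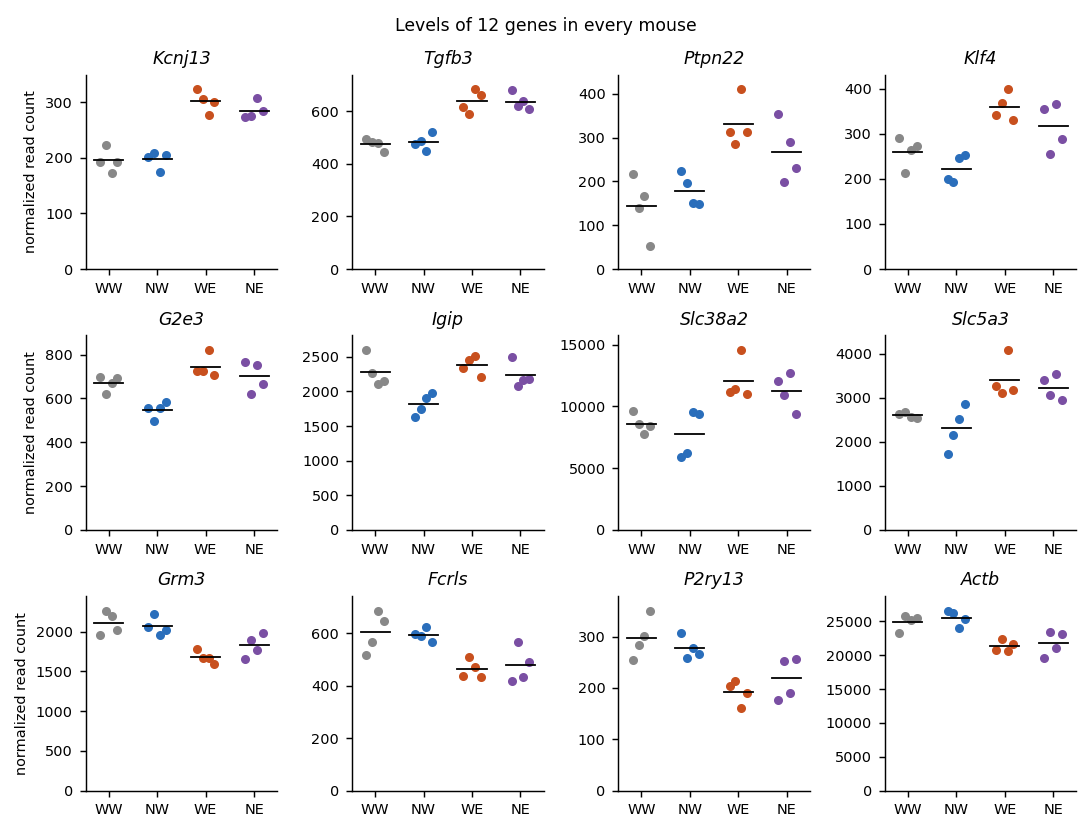
Normalized read counts (y axes from 0) of 12 genes in each of the 16 mice by group, where points are mice and bars are means of 4. Kcnj13, Tgfb3, Ptpn22 and Klf4 are higher in every mouse that drank ethanol alone than in any mouse that drank nicotine alone, and Grm3, Fcrls, P2ry13 and Actb are lower.

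Microglial markers had the lowest median of the cell type lists with more than 1 tested gene. Of 16 markers tested, 9 were lower in Water-Ethanol at an unadjusted p under 0.05 and 0 higher, 6 had all Water-Ethanol mice below all NW mice, and 15 had a negative fold change (median -0.20, against 0.0020 for all genes). Besides Fcrls, the fractalkine receptor Cx3cr1 had 1112, 1194, 1061 and 1118 in the Water-Ethanol mice and 1328, 1231, 1346 and 1350.0 in the NW mice (log2 fold change -0.23 ± 0.054, adjusted p = 0.0872). The complement gene C1qb had 673, 736, 633 and 700.1 in the Water-Ethanol mice and 838, 798, 796 and 754 in the NW mice (log2 fold change -0.22 ± 0.062). Trem2, a lipid-sensing receptor, and its adaptor Tyrobp were lower in every Water-Ethanol mouse too (log2 fold changes -0.38 ± 0.13 and -0.28 ± 0.085), although both are low genes, with 107 to 141 and 178 to 201 normalized reads in Water-Ethanol and 146 to 185 and 214 to 243 in NW.

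The ADP receptor P2ry12, a microglial marker and relative of P2ry13, did not share this: its values of 912, 922, 799 and 809 in the Water-Ethanol mice and 823, 865, 875 and 906 in the NW mice overlapped (log2 fold change -0.012 ± 0.062), and both groups lay below the WW range of 949 to 1202. The summed level of the 16 markers was 12218 to 13281 in Water-Ethanol and 12712 to 14066 in NW, which overlap through NW mouse 8. In whole brain, fewer cells of a type and less RNA per cell cannot be told apart. The list median stayed negative in every alternative fit (-0.23 to -0.14), and it was -0.22 for Water-Ethanol minus WW and -0.027 for NW minus WW, 2 comparisons that share the WW mice. WW mouse 21 had the highest mean deviation of the markers in WW (0.31 log2 units, against -0.049 to 0.11 in the other 3), and without it the medians were -0.17 and 0.041.

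Oligodendrocyte markers, genes of the cells that make myelin, also leaned lower: 4 of 11 at an unadjusted p under 0.05, 0 higher, 10 negative (median -0.12, -0.15 to -0.077 over the alternatives). Cnp, an enzyme of myelin, had 11927, 11792, 11290.3 and 10756 in the Water-Ethanol mice and 15133, 14149.7, 12401 and 12616 in the NW mice (log2 fold change -0.25 ± 0.065, adjusted p = 0.108). Opalin had 446, 324, 436 and 378 in the Water-Ethanol mice and 723, 634, 494 and 422 in the NW mice (log2 fold change -0.52 ± 0.15, adjusted p = 0.137), and Mog had 2645, 2500.2, 2328 and 2119 in the Water-Ethanol mice and 3317, 3057, 2539.6 and 2383 in the NW mice (log2 fold change -0.24 ± 0.10). Mal, another myelin gene, was lower as well (log2 fold change -0.13 ± 0.047). In Cnp, Opalin and Mog, NW mice 7 and 8 were the highest, and NW mice 10 and 11 lay close to or within the Water-Ethanol range. In 1 of the 11, Cnp, the groups were without overlap. Of 12 astrocyte markers 6 were positive, and 1 was lower at an unadjusted p under 0.05 (Aldh1l1, log2 fold change -0.21 ± 0.083), with a list median of -0.0084, or -0.074 without NW mouse 10, which had the lowest mean deviation of the list (-0.14). The intermediate filament gene Gfap and the connexin gene Gjb6 had log2 fold changes of -0.13 ± 0.064 and 0.17 ± 0.084.

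**Figure D3:**
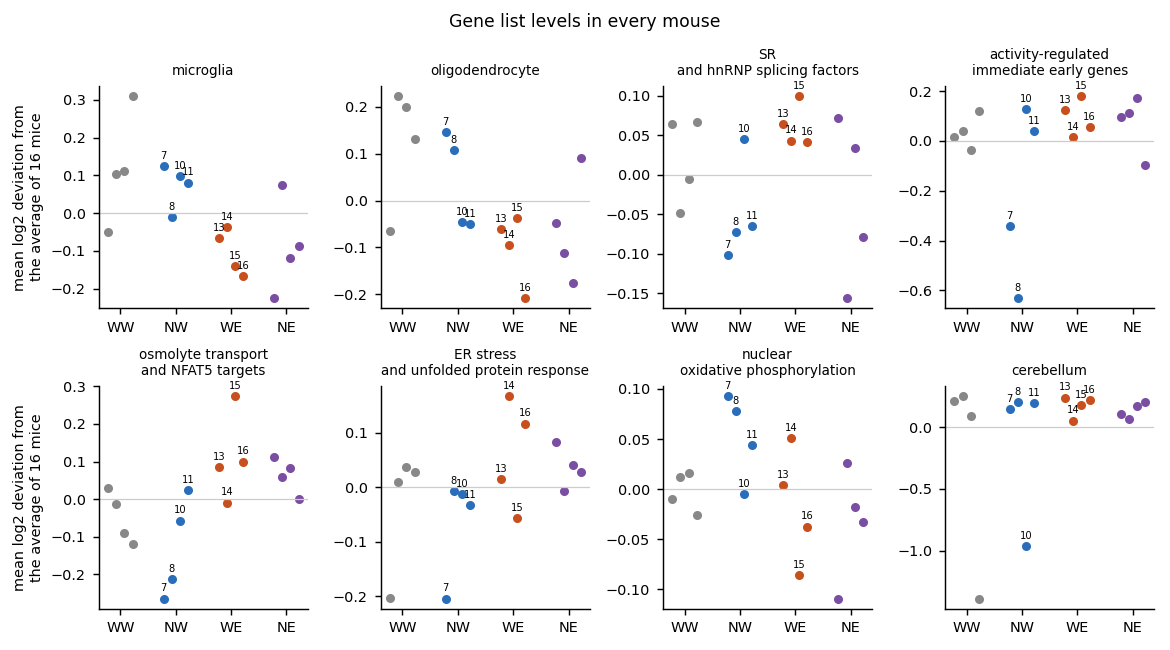
Mean deviation (log2) of the tested members of 8 gene lists from the average of all 16 mice, 1 point per mouse, with mouse numbers beside the 2 single-substance groups. Microglial markers lie lower in every mouse that drank ethanol alone than in the 4 NW mice, immediate early genes are low in NW mice 7 and 8, and cerebellar markers are low in NW mouse 10.

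Genes that cells use against osmotic stress leaned higher in Water-Ethanol. Of the 7 tested, 3 were higher at an unadjusted p under 0.05 and all 3 had groups without overlap. In all, 5 were positive and 2 negative, with a list median of 0.18 (0.086 to 0.27 over the alternatives). Over the list the groups overlapped: the mean deviation of Water-Ethanol mouse 14 (-0.0093) lay below that of NW mouse 11 (0.025). Water-Ethanol mouse 15 (0.27) was the highest, and NW mice 7 and 8 (-0.26 and -0.21) were the lowest. Slc38a2 (chr15:96687392-96699698, minus strand), which imports neutral amino acids and is induced by hypertonicity and amino acid lack, had 11158, 11447, 14589.8 and 11022 in the Water-Ethanol mice and 5926, 6195, 9531 and 9405 in the NW mice (log2 fold change 0.63 ± 0.15, adjusted p = 0.0808). Slc5a3 (chr16:92058322-92087473, plus strand), the myo-inositol transporter, had 3269, 3106, 4089.6 and 3176 in the Water-Ethanol mice and 1734, 2163, 2510.1 and 2855 in the NW mice (log2 fold change 0.56 ± 0.13, adjusted p = 0.0786). Nfat5 (chr8:107293470-107379517, plus strand), the transcription factor that drives the response to hypertonicity, had 5430.5, 4888, 5964 and 5006 in the Water-Ethanol mice and 4205, 4326, 4838 and 4520.1 in the NW mice (log2 fold change 0.25 ± 0.063, adjusted p = 0.101). NW mice 7 and 8 were the lowest in each and Water-Ethanol mouse 15 the highest.

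For Slc38a2 and Slc5a3 the Water-Ethanol mice lay above the WW range (7739 to 9594 and 2548 to 2675), while NW mice 7 and 8 lay below it and NW mouse 11 lay within or above it. Slc5a3 overlaps Mrps6 on the same strand, so reads of these genes cannot be fully parted. The edgeR test called Slc38a2 once NW mouse 10 was left out, and DESeq2 called Slc5a3 and Nfat5 on the 8 mice. The upstream windows of these 3 genes are shown because the NFAT core is the letter string that NFAT5 sites contain.
Slc38a2 (chr15:96699729-96699978, minus strand): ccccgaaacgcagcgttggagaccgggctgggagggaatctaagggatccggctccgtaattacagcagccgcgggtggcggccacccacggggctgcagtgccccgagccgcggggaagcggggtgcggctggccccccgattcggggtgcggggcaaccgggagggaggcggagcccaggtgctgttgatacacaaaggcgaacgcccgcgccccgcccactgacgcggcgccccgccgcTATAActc
Slc5a3 (chr16:92058072-92058321, plus strand): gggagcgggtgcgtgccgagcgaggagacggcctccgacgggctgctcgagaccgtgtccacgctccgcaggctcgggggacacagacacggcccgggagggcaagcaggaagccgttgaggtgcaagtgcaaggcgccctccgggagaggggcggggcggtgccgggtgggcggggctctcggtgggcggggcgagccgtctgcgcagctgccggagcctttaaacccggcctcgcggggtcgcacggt
Nfat5 (chr8:107293220-107293469, plus strand): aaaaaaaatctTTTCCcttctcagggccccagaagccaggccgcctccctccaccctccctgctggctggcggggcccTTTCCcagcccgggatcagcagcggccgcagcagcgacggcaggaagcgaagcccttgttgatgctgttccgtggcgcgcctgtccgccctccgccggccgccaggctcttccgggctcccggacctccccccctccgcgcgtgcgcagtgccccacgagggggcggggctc
Capitals mark the same motifs as above. Nfat5 holds 2 NFAT cores, which start 239 and 172 bases before the start site, a motif found in 55.6% of all windows. Slc38a2 holds 0 NFAT cores and a TATA element that starts 8 bases before its start site. Neither string occurs in the window of Slc5a3, and the RefSeq start of Slc38a2 lies 30 bases outside the gene's span in the count table.

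Immediate early genes, which neurons switch on when active, had the largest positive list median (0.21). Of 22, 20 were positive, 8 were higher in Water-Ethanol at an unadjusted p under 0.05 and 1 was lower. Klf4 was the only member without overlap. Jun had 2064, 1820.0, 2059.7 and 1909 in the Water-Ethanol mice and 1668, 1756, 1765 and 1875 in the NW mice (log2 fold change 0.15 ± 0.053, adjusted p = 0.195). Dusp1, a phosphatase that ends MAP kinase signals, had 1221, 1147, 1475 and 1045 in the Water-Ethanol mice and 699.8, 396, 1086 and 1034 in the NW mice (log2 fold change 0.60 ± 0.23, adjusted p = 0.220), and Btg2 had 497, 578, 747 and 504 in the Water-Ethanol mice and 444, 324, 518 and 479 in the NW mice (log2 fold change 0.40 ± 0.15, adjusted p = 0.210).

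The spread within NW was large. Arc, a synaptic messenger RNA, had 6368, 5947, 6485 and 5762 in the Water-Ethanol mice and 2978, 1250.3, 6073 and 6024 in the NW mice, so that NW mice 10 and 11 sat with Water-Ethanol while mice 7 and 8 were low (log2 fold change 0.59 ± 0.34, adjusted p = 0.398). Fos had 1017, 859, 1042 and 825 in the Water-Ethanol mice and 655, 379, 962 and 968 in the NW mice (log2 fold change 0.34 ± 0.22, adjusted p = 0.446), and Nr4a1 had 2568, 2429.7, 2534 and 2229.8 in the Water-Ethanol mice and 1517, 842, 2719 and 2387 in the NW mice (log2 fold change 0.39 ± 0.25, adjusted p = 0.449), or 0.62 without NW mouse 10. The mean deviation over the list was -0.34 and -0.63 log2 units in NW mice 7 and 8 against 0.041 and 0.13 in mice 11 and 10 and 0.014 to 0.18 in Water-Ethanol. The exception to the direction was Nptx2, a secreted synaptic pentraxin, with 1087, 973, 1063 and 1274 in the Water-Ethanol mice and 1159, 1338, 1466 and 1412 in the NW mice (log2 fold change -0.29 ± 0.085, adjusted p = 0.137). Fosb was 406, 299.9, 421 and 419.6 in Water-Ethanol and 238, 269, 388 and 363 in NW (log2 fold change 0.30 ± 0.15, adjusted p = 0.333).

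Of 17 glucocorticoid-responsive genes 15 were positive, 4 were higher at an unadjusted p under 0.05 and 0 lower, with a median of 0.15. As with the immediate early genes, NW mice 7 and 8 were low (mean deviations -0.24 and -0.21), while NW mice 10 and 11 (0.063 and 0.087) lay within the Water-Ethanol range of -0.025 to 0.22. Sgk1, a kinase induced by stress hormones and by osmotic stress, had 1916, 2514, 2887 and 2775 in the Water-Ethanol mice and 1419, 1562, 2348 and 1941 in the NW mice (log2 fold change 0.47 ± 0.15, adjusted p = 0.154). Plin4, a lipid droplet protein, had 222, 392, 369.9 and 245 in the Water-Ethanol mice and 88.7, 114, 237 and 255 in the NW mice (log2 fold change 0.83 ± 0.29, adjusted p = 0.193), and Tsc22d3, a classic glucocorticoid target, had 2794, 3208, 3104 and 3079 in the Water-Ethanol mice and 2564, 2694, 2729.6 and 2949 in the NW mice (log2 fold change 0.15 ± 0.054, adjusted p = 0.197). In none of the 17 were the groups without overlap. Of 19 clock genes, 4 were higher and 0 lower at an unadjusted p under 0.05 (median 0.044, or 0.10 without NW mouse 10). Here too NW mice 7 and 8 lay low (-0.073 and -0.091) and NW mice 10 and 11 (0.024 and 0.020) within the Water-Ethanol range of -0.015 to 0.065. Nr1d2, a repressor of the clock, had 5572, 5962, 5602 and 5249.9 in the Water-Ethanol mice and 4647, 4811, 4851 and 5150.3 in the NW mice (log2 fold change 0.20 ± 0.049, adjusted p = 0.0888), and the groups of Clock itself were also separate (log2 fold change 0.16 ± 0.055). The nuclear receptor Rora was higher too (log2 fold change 0.18 ± 0.076, 0.11 without NW mouse 10). Per1, which light and glucocorticoids induce, was low in NW mouse 8, with 3119, 2938, 2983 and 2901 in the Water-Ethanol mice and 2509.7, 1779.8, 2950.2 and 2765 in the NW mice (log2 fold change 0.25 ± 0.12).

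Splicing factors of the SR and hnRNP families had the highest share of separated members among the higher lists of more than 10 genes. All Water-Ethanol mice lay above all NW mice in 7 of 24, 9 were higher at an unadjusted p under 0.05 and 0 lower (median 0.069). Srsf1 had 7147, 6871, 7445 and 6974 in the Water-Ethanol mice and 5727, 5772, 6423 and 6221 in the NW mice (log2 fold change 0.23 ± 0.047, adjusted p = 0.0710). Hnrnph1 had 7915, 7751, 8815 and 8158 in the Water-Ethanol mice and 6380.4, 6713, 7298 and 6942 in the NW mice (log2 fold change 0.25 ± 0.051, adjusted p = 0.0710). Srsf12 had 629, 621, 645 and 629.9 in the Water-Ethanol mice and 466, 444, 619 and 500.0 in the NW mice (log2 fold change 0.32 ± 0.088). Hnrnpa1 was counted low (229 to 299 against 146 to 196, log2 fold change 0.59 ± 0.12) and overlaps Gm10052 and Gm5643 on the same strand, so its level is uncertain.

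These 4 genes were called both by DESeq2 and by edgeR without NW mouse 10, but in the edgeR fit of all 16 mice only Hnrnph1 was called (adjusted p = 0.0782 for Srsf1, 0.0635 for Srsf12 and 0.0822 for Hnrnpa1). The edgeR fit of the 8 mice called 0 genes with or without a correction for GC, so its calls cannot show what the correction changed. After it the log2 fold changes were 0.23 for Srsf1, 0.20 for Hnrnph1, 0.32 for Srsf12 and 0.56 for Hnrnpa1. NW mouse 10, with a mean deviation of 0.045 over the list, lay within the Water-Ethanol range of 0.041 to 0.10, and the other 3 NW mice lay below it. For Srsf1 the Water-Ethanol mice lay near the WW range of 6582 to 7266 and all NW mice below it, whereas for Hnrnph1 they lay above the WW range of 6838 to 7559. Transcripts of the splicing list are low in GC (median 45.2% against 50.9% for all genes), and when all genes were cut into 10 bins by GC, the lowest bin had a median log2 fold change of 0.065 and the eighth -0.025. After a correction for GC the list median was 0.046 and that of the osmolyte list 0.21. Among the genes that led the comparison, the correction moved the log2 fold change from 0.39 to 0.29 for Igip and from 0.44 to 0.34 for G2e3. It moved from 0.28 to 0.22 for Xpo1 and from 0.35 to 0.30 for Mier1, and in each of these genes the corrected value was the lowest of all fits. Kcnj13 stayed at 0.60, and Klf4 (0.69 to 0.71), Tgfb3 (0.40 to 0.42) and Btg1 (0.388 to 0.391) rose. The part of GC in single genes was not tested further.

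Of 9 CHD chromatin remodellers 5 were positive and 4 negative (median 0.035). Chd2, a CHD-family nucleosome remodeller, had 3141, 2944, 3289 and 2935 in the Water-Ethanol mice and 2525, 2554, 2685 and 2453 in the NW mice (log2 fold change 0.27 ± 0.049, adjusted p = 0.0692), and its Water-Ethanol values lay above the WW range of 2465 to 2546 while NW lay around it. The same strand holds the overlapping gene 1810026B05Rik. Chd9 was separate as well (log2 fold change 0.16 ± 0.047), and 2 of the 9 CHD genes were higher at an unadjusted p under 0.05. Of 34 histone and DNA modifying enzymes 5 were higher and 0 lower, with 27 positive (median 0.061). The mean deviation of either list in Water-Ethanol mouse 14 (-0.044 and -0.030) lay within the NW range. Tet3, which oxidises methylated cytosine, had 3182, 2883, 3124 and 3029.7 in the Water-Ethanol mice and 2694, 2412, 2661 and 2515 in the NW mice (log2 fold change 0.25 ± 0.050, adjusted p = 0.0710). The groups of Kmt2e were separate (log2 fold change 0.17 ± 0.045), and those of Kdm6b, a histone demethylase, overlapped (log2 fold change 0.21 ± 0.085).

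Genes of the unfolded protein response, which hold chaperones of the endoplasmic reticulum, transcription factors and degradation genes, were higher in Water-Ethanol in 6 of 20 cases at an unadjusted p under 0.05 and lower in 0, with 17 positive (median 0.10). The groups overlapped over the list: the mean deviation of Water-Ethanol mouse 15 (-0.057) lay below those of NW mice 8, 10 and 11 (-0.0069, -0.013 and -0.033). NW mouse 7 (-0.20) and WW mouse 18 (-0.20) were the lowest of their groups. Dnajb9, a co-chaperone of BiP, had 1677, 1783, 1611 and 1654 in the Water-Ethanol mice and 1216, 1473, 1420.0 and 1529.9 in the NW mice (log2 fold change 0.25 ± 0.066, adjusted p = 0.105). Dnajc3, which restrains the PERK kinase, had 3541, 3838, 3638 and 3779.6 in the Water-Ethanol mice and 2500.3, 3052, 3122 and 3451 in the NW mice (log2 fold change 0.29 ± 0.076, adjusted p = 0.111). Hspa5, BiP itself, had 15058, 17933, 12927 and 15484 in the Water-Ethanol mice and 10409.5, 13306, 13957 and 12869 in the NW mice (log2 fold change 0.28 ± 0.10), and Sdf2l1 was 465, 564, 425 and 524 against 311, 436, 384 and 411 (log2 fold change 0.36 ± 0.11). NW mouse 7 was the lowest in all 4. For Dnajb9 the WW mice (1706 to 1840.1) lay above every NW mouse and overlapped Water-Ethanol.

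In the heat and cold shock list 4 of 16 were higher and 1 lower, and the median was 0.020, or 0.056 without NW mouse 10. Without NW mice 7 and 10, an alternative chosen after seeing the data, it was -0.043. The mean deviations overlapped (-0.015 to 0.14 in Water-Ethanol and -0.21 to 0.085 in NW), and NW mouse 7 was the lowest. The inducible HSP70 gene Hspa1b had 406, 456, 369 and 474 in the Water-Ethanol mice and 171, 282, 353 and 388 in the NW mice (log2 fold change 0.52 ± 0.18), with the caution that it shares almost its whole sequence with Hspa1a. Its co-chaperone Dnajb1 had 2183, 2385, 2166 and 2256 in the Water-Ethanol mice and 1547, 1716, 2139 and 2027 in the NW mice (log2 fold change 0.28 ± 0.084, adjusted p = 0.149). The cold-induced RNA-binding genes split. Rbm3 was higher, at 2198, 2135, 1840.4 and 1707 in the Water-Ethanol mice and 1629, 1549, 1655 and 1638 in the NW mice (log2 fold change 0.28 ± 0.074, adjusted p = 0.105), and lies over the antisense gene Rbm3os, whereas Cirbp was lower, at 938, 908, 878 and 849 in the Water-Ethanol mice and 1272, 1243, 919 and 884 in the NW mice (log2 fold change -0.28 ± 0.11, adjusted p = 0.240). NW mice 7 and 8 carried the high Cirbp values.

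Insulin and IGF signalling had 5 of 14 genes higher and 0 lower at an unadjusted p under 0.05, but a median of only 0.023. The receptor Igf1r had 3883, 3783, 4335 and 3701 in the Water-Ethanol mice and 3261, 3276, 3497 and 3360.0 in the NW mice (log2 fold change 0.23 ± 0.051, adjusted p = 0.0786). The docking protein Irs1 had 1352, 1382, 1384 and 1268 in the Water-Ethanol mice and 1067, 1036, 1147 and 1239.7 in the NW mice (log2 fold change 0.26 ± 0.061, adjusted p = 0.0808), and Irs2 had 1715, 1641, 1897 and 2002 in the Water-Ethanol mice and 1324, 1525, 1519 and 1793 in the NW mice (log2 fold change 0.23 ± 0.084). Igf1r and Irs1 were without overlap and were called by DESeq2. Of 22 cholesterol synthesis genes 2 were lower, near the 7.07% of all genes, and 0 higher. The list median was -0.063 (-0.093 to -0.0073 over the alternatives), and the mean deviations of the NW mice (-0.12 to 0.11) enclosed those of Water-Ethanol (-0.068 to -0.015). Srebf2, the transcription factor that controls the pathway, had 5700.1, 5545, 5545 and 5709.8 in the Water-Ethanol mice and 6345, 6258, 6377 and 6004 in the NW mice (log2 fold change -0.15 ± 0.040, adjusted p = 0.109), and Fdft1 (squalene synthase) was also lower (log2 fold change -0.11 ± 0.049).

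Most genes of the respiratory chain and of the ribosome had small negative fold changes, but by mouse the groups overlapped. The mean deviation of Water-Ethanol mouse 14 (0.051 for the respiratory and 0.087 for the ribosomal list) lay within the NW ranges of -0.0047 to 0.093 and 0.011 to 0.10, and mouse 15 was the lowest of the 8 in both. Of 82 nuclear oxidative phosphorylation genes, 76 were negative, 16 were lower at an unadjusted p under 0.05 and 0 higher, and 14 had all Water-Ethanol mice below all NW mice (over all genes 4.79% lay that way). The median was -0.064. Cox6a1 had 4014, 4326, 4139.8 and 4237 in the Water-Ethanol mice and 4645, 4629, 4473 and 4609 in the NW mice (log2 fold change -0.14 ± 0.041, adjusted p = 0.146), and Ndufa9 of complex I had 2734, 2852, 2621 and 2705 in the Water-Ethanol mice and 3019, 3067, 2905 and 2981 in the NW mice (log2 fold change -0.14 ± 0.043). Ndufs7 was separate too (log2 fold change -0.15 ± 0.049). The largest fold change with a p under 0.05 was that of Cox6a2, a low gene with 73.9, 69.5, 73.8 and 74.4 in the Water-Ethanol mice and 95.3, 85.1, 97.2 and 90.4 in the NW mice (log2 fold change -0.34 ± 0.11).

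Of 75 cytosolic ribosomal protein genes, 69 were negative, 11 were lower at an unadjusted p under 0.05, 0 were higher and 4 were separate (median -0.067). Rps2 had 6209, 6494, 6065 and 6273 in the Water-Ethanol mice and 6719.9, 6794, 6806 and 6854 in the NW mice (log2 fold change -0.12 ± 0.039) and Rpl37 was lower as well (log2 fold change -0.14 ± 0.049). Ribosomal protein genes have many processed copies that can share reads. The medians of both lists stayed negative in every alternative fit (-0.092 to -0.044 and -0.11 to -0.044). Beside the WW mice the respiratory genes lay at -0.024 for Water-Ethanol and 0.051 for NW, and the ribosomal genes at -0.0063 and 0.053. Without WW mouse 21 these were -0.012 and 0.054 for the respiratory and 0.025 and 0.086 for the ribosomal genes.

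**Figure D4:**
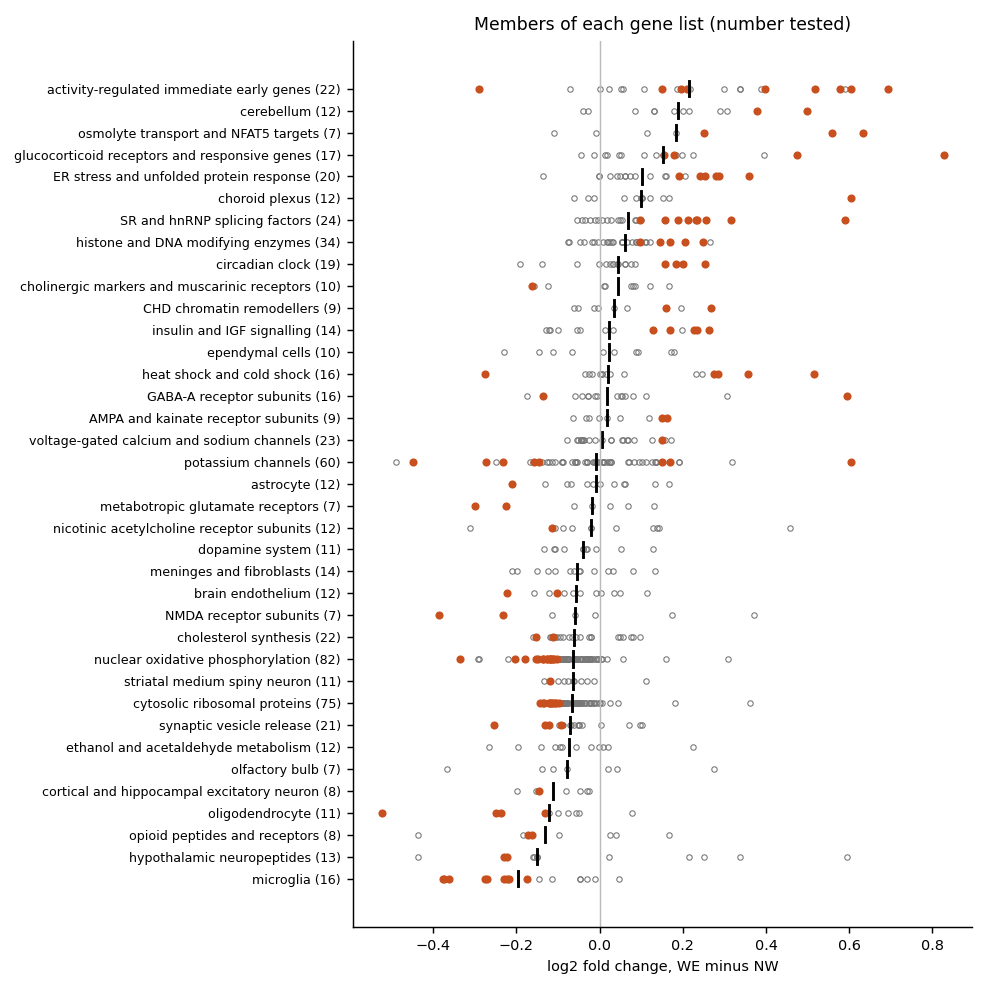
Log2 fold change (ethanol alone minus nicotine alone) of each tested member of the lists with 7 or more tested members, with filled points for an unadjusted p under 0.05 and a bar at the list median. Immediate early genes have the highest median (0.21) and microglial markers the lowest (-0.20), while most receptor lists centre near 0.

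Of 12 nicotinic receptor subunits tested, the proteins on which nicotine acts, 1 was lower at an unadjusted p under 0.05 and 0 higher (median -0.022, or 0.0022 without NW mouse 10). Chrna4, a subunit of the main high-affinity receptor of brain, had 1493, 1426, 1402 and 1352 in the Water-Ethanol mice and 1568, 1471, 1569.6 and 1527 in the NW mice (log2 fold change -0.11 ± 0.049, adjusted p = 0.262). Its partner Chrnb2 had 2467, 2388, 2471 and 2437 in the Water-Ethanol mice and 2509.7, 2568, 2435 and 2383 in the NW mice (log2 fold change -0.021 ± 0.042), and Chrna7 had 381, 368, 397 and 329 in the Water-Ethanol mice and 346, 348, 430.4 and 374 in the NW mice (log2 fold change -0.022 ± 0.085), both with overlapping groups. Chrna3 stood at 94.9, 91.3, 96.3 and 97.7 against 81.1, 88.9, 80.8 and 94.0 (log2 fold change 0.14 ± 0.11).

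Of 10 cholinergic markers and muscarinic receptors, 1 was lower, the muscarinic receptor Chrm3 (log2 fold change -0.16 ± 0.065), and the median was 0.044, or -0.011 without NW mouse 10. Chrm1 had 3935, 3916, 3627 and 3966 in the Water-Ethanol mice and 3678, 4122, 4982 and 4054 in the NW mice (log2 fold change -0.12 ± 0.075, -0.034 without that mouse). Among 11 dopamine genes 0 passed an unadjusted p of 0.05 in either direction (median -0.039). The receptor Drd2 had 467, 505, 555 and 529 in the Water-Ethanol mice and 587, 542, 529.8 and 592 in the NW mice (log2 fold change -0.13 ± 0.069, adjusted p = 0.349), and the vesicular transporter Slc18a2 had 404, 501, 521 and 492 against 408, 443, 422 and 477 (log2 fold change 0.13 ± 0.084). Ethanol and acetaldehyde metabolism had 0 of 12 genes at an unadjusted p under 0.05 (median -0.074). Aldh2 had 2569.9, 2643, 2473 and 2552 in the Water-Ethanol mice and 2528, 2582, 2339 and 2718 in the NW mice (log2 fold change 0.0084 ± 0.051), and catalase (Cat) had 1694, 1641, 1599 and 1636 in the Water-Ethanol mice and 1832, 1611, 1520.5 and 1607 in the NW mice (log2 fold change -0.0022 ± 0.059). Aldh1b1 (log2 fold change -0.20 ± 0.11) and Aldh9a1 (log2 fold change -0.10 ± 0.060) were lower in the mean, with overlapping groups.

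Of 7 NMDA receptor genes 2 were lower and 0 higher at an unadjusted p under 0.05. In all, 5 were negative and 2 positive, with a median of -0.060. The mean deviations of the Water-Ethanol mice over the list (-0.10 to 0.073) enclosed those of the NW mice (-0.071 to 0.062). Grin2b, the subunit that prolongs NMDA currents, had 2835, 2478, 2743 and 2665 in the Water-Ethanol mice and 2812, 4105, 3633 and 3463 in the NW mice (log2 fold change -0.39 ± 0.088, adjusted p = 0.0786), and Grin2a had 1776, 1612, 1586 and 1553 in the Water-Ethanol mice and 1551, 2054, 2133 and 1935 in the NW mice (log2 fold change -0.23 ± 0.083, adjusted p = 0.200). In Grin2b NW mouse 7 lay within the Water-Ethanol range and in Grin2a just under it, while the other 3 NW mice lay above it in both genes. The common subunit Grin1 had 12675, 11348, 12563 and 12079 in the Water-Ethanol mice and 13609.6, 12788, 14139.6 and 12104 in the NW mice (log2 fold change -0.11 ± 0.055). DESeq2 called Grin2b. All 4 Water-Ethanol values of Grin2b lay below the WW range of 3075 to 3780.2.

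Of 7 metabotropic glutamate receptors 3 were positive and 4 negative (median -0.019). At an unadjusted p under 0.05, 2 were lower, Grm3 and its close relative Grm2, which had 994, 885, 833 and 891 in the Water-Ethanol mice and 1120.5, 958, 1136 and 996 in the NW mice (log2 fold change -0.23 ± 0.073, adjusted p = 0.169), and 0 were higher. AMPA and kainate subunits went the other way in 2 of 9: Grik2 had 2564, 2405, 2743 and 2489 in the Water-Ethanol mice and 2234, 2291, 2322 and 2262 in the NW mice (log2 fold change 0.16 ± 0.046, adjusted p = 0.130) and Gria4 had 7449, 6986, 7124 and 7033 in the Water-Ethanol mice and 6532, 6944, 5426 and 6827 in the NW mice (log2 fold change 0.15 ± 0.067, adjusted p = 0.282), both without overlap. For Gria4, NW mouse 10 was the lowest, and the log2 fold change was 0.078 without it. Gria2 overlapped (log2 fold change 0.12 ± 0.062, 0.19 without that mouse). Of the 9 AMPA and kainate genes 5 were positive and 4 negative (median 0.017). GABA-A receptor genes had 1 of 16 higher (Gabrr2, log2 fold change 0.60 ± 0.21, with only 19.7 to 27.1 normalized reads in NW) and 1 lower (Gabrb1, log2 fold change -0.14 ± 0.059), with a median of 0.018, or 0.038 without NW mouse 10.

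Ion channels showed single genes rather than a direction. Of 60 potassium channel genes 3 were higher and 5 lower (median -0.0078). Beside Kcnj13, Kcnh5 of the ether-a-go-go family had 760.1, 791, 646 and 740.4 in the Water-Ethanol mice and 778, 952, 900.0 and 921 in the NW mice (log2 fold change -0.27 ± 0.076, adjusted p = 0.123), and the vascular KATP subunit Kcnj8 had 68.9, 74.5, 56.4 and 74.4 in the Water-Ethanol mice and 102, 105, 66.6 and 98.6 in the NW mice (log2 fold change -0.45 ± 0.16, adjusted p = 0.205). Of 23 calcium and sodium channel genes 1 was higher, the calcium channel subunit Cacnb2 (log2 fold change 0.15 ± 0.050). Synaptic vesicle genes were lower in 4 of 21 and higher in 0, with 17 negative, 5 separate and a median of -0.072. The SNARE protein Stx1a had 3678, 3618, 3378 and 3716 in the Water-Ethanol mice and 4207, 4126, 4926 and 3883 in the NW mice (log2 fold change -0.25 ± 0.067, adjusted p = 0.110), Rab3a had 13050.3, 13206, 12399 and 13065 in the Water-Ethanol mice and 13402, 14536, 14184 and 14477 in the NW mice (log2 fold change -0.13 ± 0.042) and synapsin Syn1 was lower too (log2 fold change -0.12 ± 0.045).

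The neuropeptide genes with an unadjusted p under 0.05 were lower in Water-Ethanol. Penk, the enkephalin precursor, had 4942, 5222, 5183 and 5362 in the Water-Ethanol mice and 5713, 5658, 5938 and 5866 in the NW mice (log2 fold change -0.16 ± 0.041, adjusted p = 0.101), and Pdyn, the dynorphin precursor, had 716, 707, 708 and 875 in the Water-Ethanol mice and 754, 872, 903 and 859 in the NW mice (log2 fold change -0.17 ± 0.079, adjusted p = 0.292). These were the 2 of 8 opioid genes at an unadjusted p under 0.05. Of the 8, 5 were negative and 3 positive, with a median of -0.13, or -0.10 without NW mouse 10. The mean deviation of that mouse over the list was 0.23, against -0.028 to 0.031 in the other NW mice and -0.060 to 0.0029 in Water-Ethanol. Among 13 hypothalamic peptide genes 2 were lower and 0 higher. In all, 8 were negative and 5 positive, with a median of -0.15, or -0.11 without NW mouse 10. That mouse had a mean deviation of 0.24, and the other NW mice (-0.065 to -0.0024) lay within the Water-Ethanol range of -0.073 to 0.12. Without NW mice 7 and 10, an alternative chosen after seeing the data, the opioid and hypothalamic medians were -0.021 and -0.018. Sst had 2228, 2365, 2139.6 and 2299 in the Water-Ethanol mice and 2471, 2627, 2808 and 2679 in the NW mice (log2 fold change -0.23 ± 0.050, adjusted p = 0.0786) and Npy had 849, 811, 856 and 936 in the Water-Ethanol mice and 952, 1044, 1053 and 977 in the NW mice (log2 fold change -0.22 ± 0.058, adjusted p = 0.105), both inhibitory peptides that cortical interneurons also make, and both separate between the groups.

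Genes that the study named, which it chose on these same libraries, were compared directly as well, and Arc, Fos, Nr4a1, Fosb, Sgk1, Irs2, Grm3, Grin2a and Grin2b above are of the same kind. Pomc had 44.9, 43.7, 36.9 and 25.5 in the Water-Ethanol mice and 49.0, 40.1, 85.2 and 33.5 in the NW mice, the highest in NW mouse 10, which also carried Prl (log2 fold change -0.44 ± 0.28, adjusted p = 0.450), and without that mouse the log2 fold change was -0.11. Avp had 161, 165, 337 and 219.9 in the Water-Ethanol mice and 212, 187, 293 and 291 in the NW mice (log2 fold change -0.16 ± 0.22, adjusted p = 0.752), with -0.067 without NW mouse 10. Both overlapped. Bdnf (log2 fold change 0.023 ± 0.10) and the CRH receptor Crhr1 (log2 fold change 0.10 ± 0.085) did not reach an unadjusted p of 0.05. Cav2 had 1098, 1220.3, 1178 and 1277 in the Water-Ethanol mice and 858, 1142, 1103 and 1282 in the NW mice (log2 fold change 0.12 ± 0.10), and both groups lay below the WW range of 1405 to 1617.

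Il20rb, a cytokine receptor subunit, had 287, 196, 316 and 282 in the Water-Ethanol mice and 206, 155, 122 and 187 in the NW mice (log2 fold change 0.68 ± 0.16, adjusted p = 0.0900), separated but for Water-Ethanol mouse 14. Kcnt1, a sodium-activated potassium channel, had 4860.1, 4131, 5615 and 4657 in the Water-Ethanol mice and 5029, 3883, 4281 and 3650.2 in the NW mice (log2 fold change 0.19 ± 0.10, adjusted p = 0.360), and Kcnb2 had 506, 459.7, 404 and 448 in the Water-Ethanol mice and 423, 557, 564 and 499 in the NW mice (log2 fold change -0.17 ± 0.10, adjusted p = 0.394). Il16 had 1325, 1124, 1383 and 1306 in the Water-Ethanol mice and 1282, 1259, 637 and 1416 in the NW mice, where leaving out NW mouse 10 turned the sign (log2 fold change 0.15 ± 0.18, -0.039 without it). Grm4, a cerebellar glutamate receptor, did the same, with 4144, 3480.2, 4087 and 4218 in the Water-Ethanol mice and 4417, 4388, 2478 and 3878 in the NW mice (log2 fold change 0.068 ± 0.14, -0.088 without it).

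Marker lists of several cell types and regions depended on NW mouse 10. Cerebellar markers had a median of 0.19 with 2 of 12 higher, and -0.013 without that mouse. Gabra6, of cerebellar granule cells, had 4085, 3799.9, 4119 and 4051 in the Water-Ethanol mice and 3518, 3831, 1655 and 3955 in the NW mice, and Neurod1 had 2598, 2351, 2576 and 2792 in the Water-Ethanol mice and 1750.5, 2050.3, 1067 and 2406 in the NW mice (log2 fold change 0.50 ± 0.17, 0.32 without that mouse). Barhl1, a granule cell transcription factor, was the other higher member (log2 fold change 0.38 ± 0.15, 0.25 without it). Choroid plexus markers had 1 of 12 higher, Kcnj13, and a median of 0.10, or -0.043 without that mouse. Their summed level was 19975 to 23856 in Water-Ethanol and 15402 to 24911 in NW. The transthyretin gene Ttr, the most abundant choroid plexus messenger RNA, overlapped between groups (19643, 20293, 16610.5 and 19999 against 18217, 19584, 12829 and 21336), and the Kcnj13 fold change without mouse 10 was 0.55. The part of mouse 10 in the cerebellar and choroid plexus values was measured by leaving it out and not tested beyond that.

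Brain endothelium had 2 of 12 lower (Tie1, log2 fold change -0.22 ± 0.081, and Abcb1a, log2 fold change -0.10 ± 0.047) and a median of -0.056, or -0.094 without NW mouse 10. Slco1a4, an endothelial transporter, had 2102, 2274, 2236 and 1877 in the Water-Ethanol mice and 2327, 2332, 2343 and 2232 in the NW mice (log2 fold change -0.12 ± 0.058). Meningeal and fibroblast markers had 0 of 14 in either direction (median -0.055), with Col1a1 at 712, 562, 534 and 563 in the Water-Ethanol mice and 811, 595, 699 and 615 in the NW mice, and ependymal markers had 0 of 10 (median 0.022, or -0.013 without NW mouse 10), with Foxj1 at a log2 fold change of 0.18 ± 0.10 (0.083 without it). Olfactory bulb markers had 0 of 7 (median -0.079) and olfactory epithelium 0 of the 3 tested (median 0.074), and without NW mouse 10 these medians were 0.049 and 0.20. Medium spiny neuron markers had 1 of 11 lower, the phosphatase inhibitor Ppp1r1b (log2 fold change -0.12 ± 0.052), and a median of -0.064, or -0.038 without NW mouse 10. Markers of cortical and hippocampal excitatory neurons were negative in 8 of 8, with a median of -0.11, or -0.046 without NW mouse 10, and 1 was lower, the vesicular glutamate transporter Slc17a7, with 23760.4, 23205, 21656 and 23268 in the Water-Ethanol mice and 24795, 25568, 27064 and 24139 in the NW mice (log2 fold change -0.15 ± 0.048, adjusted p = 0.176). Tbr1 overlapped (log2 fold change -0.15 ± 0.079, -0.054 without NW mouse 10). Over the excitatory markers NW mouse 10 had the highest mean deviation of the 8 mice (0.15), and NW mouse 7 (-0.13) lay as low as the lowest Water-Ethanol mouse (-0.13). None of the 8 pituitary genes passed the count filter, and Fshb had 0 reads in all 8 mice. Of 7 blood genes, the 6 haemoglobin genes, Hbb-bs among them, had 0 reads in all 8 mice and the 1 tested did not reach an unadjusted p of 0.05.

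**Figure D5:**
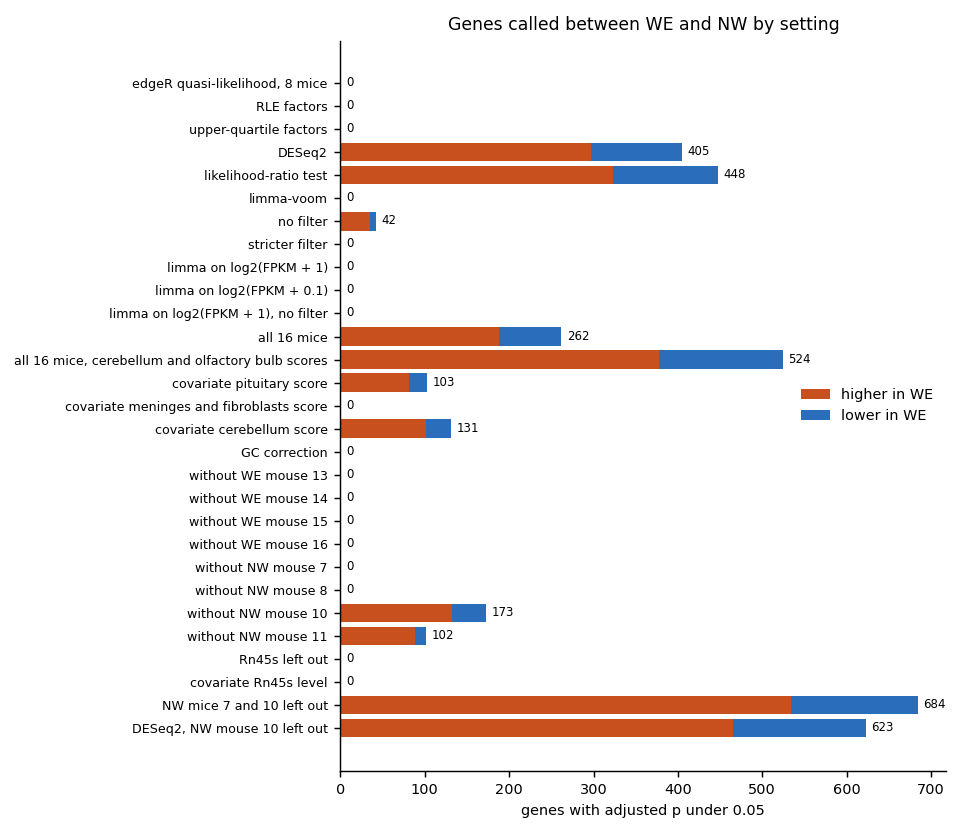
Genes with an adjusted p under 0.05 between ethanol alone and nicotine alone (x axis) in the fit of 8 mice and in each alternative, split by direction. The fit of 8 mice and several alternatives give 0, DESeq2 gives 405 and leaving out NW mice 7 and 10 gives 684, most of them higher with ethanol.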

How the data were processed

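Total RNA of whole brain from 16 mice, 4 per group and each a separate animal, was sequenced as single reads. Per the labels and the study's methods, the authors trimmed reads with Trimmomatic (0.32), aligned them to mm10 (GRCm38) with TopHat2 and deposited whole-number read counts per gene. The authors also deposited a table of FPKM values made with Cufflinks, normalized per length and library size. The labels name a TruSeq RNA kit, which does not mark strand, and the study's methods a stranded TruSeq kit with first-strand alignment. The counting program and its strand setting are not given in the sources used here, so reads of overlapping genes may not be told apart.

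Counts of the 8 mice were tested with edgeR (4.0.16, R 4.3.3): TMM factors, filterByExpr, quasi-likelihood fit, Benjamini-Hochberg adjustment at 0.05. 4 rows with a repeated gene name were left out of each table. Normalized read counts use TMM factors over 16 mice and a common size of 29526595 reads. The standard error is the log2 fold change divided by the root of F. DESeq2 (1.42.0), limma (3.58.1), other scalings, filters, covariates and left-out mice were alternatives, and the FPKM values entered only there, as log2(FPKM + 1) or log2(FPKM + 0.1). The scripts were tested on simulated data. GC came from GENCODE vM21 transcripts (98.2% of tested genes). Upstream windows came from RefSeq on GRCm38.p6.

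Members and lists were chosen with earlier results of these data known. Named genes were the 12 with the smallest p per direction among those without overlap, since 0 passed the threshold, the 3 members with the smallest p of each list, and genes the study or the lists name as defining, 157 in all. Another 11 (Trem2, Tyrobp, P2ry12, Btg2, Dusp1, Srsf12, Hspa5, Cirbp, Per1, Mog and Cox6a2) were chosen after their values were seen. Of the 157, 3 are not reported here. For brevity 28 others are given by their range alone: 0 had an unadjusted p under 0.05 and their log2 fold changes ran from -0.37 to 0.51.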

Additional observations from a re-analysis of the deposited data

Results flagged for a closer look

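Dixon's ratio, the distance of the outermost mouse to its nearest neighbour divided by the range of the set, was taken in 274 sets of 4 mice (137 genes in both groups). In 11 it exceeded the 95% critical value for 4 samples, and chance alone flags about 1 set in 20. Water-Ethanol mouse 15 accounted for 4. It was highest for Slc38a2, with 14589.8 normalized reads against 11022 to 11447 in the other 3 mice of its group, for Slc5a3, with 4089.6 normalized reads against 3106 to 3269, and for G2e3, with 822 normalized reads against 707 to 724, and it was lowest for Chrm1, with 3627 normalized reads against 3916 to 3966. Water-Ethanol mouse 14 was lowest for Fosb, with 299.9 normalized reads against 406 to 421, and for Cox6a2, with 69.5 normalized reads against 73.8 to 74.4. Water-Ethanol mouse 16 was highest for Pdyn, with 875 normalized reads against 707 to 716, and mouse 13 for Col1a1, with 712 normalized reads against 534 to 563.

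In NW, mouse 10 was highest for Prl, with 241 normalized reads against 0 in each of the other 3, and lowest for Aldh9a1, with 880.4 normalized reads against 1009 to 1028. NW mouse 11 was lowest for Slco1a4, with 2232 normalized reads against 2327 to 2343. The causes of these values were not tested.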

How the results depend on the processing

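The count of 0 genes under an adjusted p of 0.05 held with RLE and upper-quartile factors, limma-voom, the stricter filter, limma on FPKM values, the meninges score, GC correction and, chosen after seeing the data, Rn45s left out or as a covariate. It did not hold with DESeq2 (405), the likelihood-ratio test (448), no filter (42), all 16 mice (262), all 16 mice with cerebellum and olfactory bulb scores (524), the pituitary score (103) or the cerebellum score (131). Over the 8 fits that dropped a single mouse the count ran from 0 to 173, the highest without NW mouse 10 and 102 without NW mouse 11. Alternatives chosen after seeing the data gave 684 without NW mice 7 and 10 and 623 by DESeq2 without NW mouse 10. The causes were not tested. Upper-quartile factors moved the share of genes at an unadjusted p under 0.05 that were higher in Water-Ethanol from 58.3% to 39.7%.

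Of 135 named genes, 12 changed the sign of their log2 fold change under some alternative (62 of 3776 values), 71 passed the threshold in some alternative (420 values) and 3294 values kept direction and side of the threshold. Many named genes were chosen for small p in these same mice, and these counts were not taken over all genes. They are therefore no measure of how well the named genes hold up. With the Rn45s level as a covariate the value was -0.062 for Gabra6, 0.17 for Pomc, -0.17 for Il16, -0.16 for Grm4, -0.027 for Bdnf, 0.069 for Chrna7, -0.056 for Aldh2 and -0.13 for Ttr. Without NW mice 7 and 10 the value was 0.047 for Pomc, -0.056 for Il16, -0.021 for Cav2, -0.051 for Grm4, -0.061 for Bdnf, 0.033 for Chrna7, -0.047 for Aldh2, 0.033 for Cat and -0.093 for Ttr. In the fit of 16 mice with region scores the value was -0.044 for Il16, -0.081 for Grm4, 0.0013 for Chrna7, -0.0033 for Aldh2 and 0.026 for P2ry12. With the cerebellum score the value was -0.038 for Il16, -0.090 for Grm4, 0.045 for Chrna7, -0.026 for Aldh2 and -0.034 for Ttr. By DESeq2 without NW mouse 10 the value was -0.038 for Il16, -0.086 for Grm4, 0.051 for Chrna7, -0.027 for Aldh2 and -0.042 for Ttr. With the meninges score the value was -0.0028 for Bdnf, 0.023 for Cat and 0.011 for P2ry12. After GC correction the value was -0.044 for Bdnf, 0.00011 for Chrnb2 and 0.011 for Cat. With the pituitary score the value was 0.013 for Chrna7 and -0.0076 for Aldh2. With upper-quartile factors the value was -0.014 for Aldh2. By limma-voom the value was 0.00085 for Cat. By limma on FPKM the value was 0.016 for Cat and 0.014 for P2ry12. By limma on FPKM with a pseudocount of 0.1 the value was 0.016 for Cat and 0.015 for P2ry12. By limma on unfiltered FPKM the value was 0.016 for Cat and 0.014 for P2ry12. Over the fits that left out 1 mouse each the values ran from -0.039 to 0.27 for Il16, -0.088 to 0.15 for Grm4, -0.069 to 0.10 for Bdnf, -0.059 to 0.049 for Chrna7, -0.029 to 0.041 for Aldh2, -0.036 to 0.058 for Cat, -0.043 to 0.18 for Ttr and -0.049 to 0.022 for P2ry12. Of 468 list medians, 462 moved by less than the spread between mice and 6, in 5 lists, moved further.

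No paired analysis was possible because the groups share no replicate numbers. Depth was similar in all libraries. Since mouse numbers run in blocks by group, processing order cannot be told apart from treatment.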
